A study of Mus musculus with 11 samples.

Results

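The Hox genes of the 4 mouse clusters, HoxA, HoxB, HoxC and HoxD, were examined in embryonic stem cells (ESCs). They were taken as every entry of the deposited expression table whose symbol is Hox, a letter from a to d and a number, which gave 39 of 23288 symbols. HoxA held 11 of them, HoxB 10, HoxC 9 and HoxD 9. All 39 had coordinates on the mm9 assembly. The rule used names only and no value of expression or binding, though the members were chosen with earlier results of these data known.

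Hox genes encode homeodomain transcription factors that give cells their position along the body axis of the embryo. Within a cluster the genes lie in the order of their paralog numbers, and during gastrulation they are switched on in that order, with low numbers first and at the head end. Before gastrulation, and in ESCs, the clusters are textbook targets of the Polycomb system. There PRC2 methylates histone H3 on lysine 27, and PRC1, with the ubiquitin ligase RING1B and a chromobox (CBX) protein, binds and compacts the chromatin.

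All samples were E14Tg2A ESCs, a male line derived from a mouse blastocyst, grown without feeder cells on gelatin in medium with fetal bovine serum and leukemia inhibitory factor. ChIP-seq, which sequences the DNA fragments bound by a protein, gave 4 peak lists, namely 2 replicates of anti-HA ChIP in ESCs in which the endogenous Cbx6 gene was engineered to carry a 3×HA tag, 1 ChIP of CBX7 and 1 of RING1B. The tagged cells are an engineered line, and the labels name no second clone. RNA-seq gave 4 libraries, 2 from cells with a control short hairpin RNA (shCtl) and 2 from cells with a hairpin against Cbx6 (shCbx6), both delivered by lentivirus. Which Cbx6 hairpin each shCbx6 library carried is not given in the sources used here, and nothing says that the replicates came from separate cultures, so p-values measure the spread between these libraries only. The 3 control ChIP samples were not analysed here.

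The knockdown was partial in the RNA. In shCtl, Cbx6 gave 17.4 FPKM in replicate 1 and 14.9 in replicate 2, and in shCbx6 it gave 9.53 and 5.40. FPKM counts fragments for each kilobase of a transcript, relative to how many fragments of that library were mapped. The group mean was 53.8% lower in shCbx6. On the log2(FPKM + 1) scale of the fit the difference was −1.06 with a standard error of 0.263 and did not pass over all genes (limma adjusted p = 0.247). Every shCbx6 value lay under every shCtl value. The 10 pluripotency markers, from Pou5f1 and Sox2 to Utf1, were all above 1 FPKM. None of them was called by limma, but 5 were lower in shCbx6 at an unadjusted p under 0.05 (6.55% of the 11592 genes tested were) and 1 was higher (5.12%). Their sums, over which Dppa5a weighs most, were 7815 and 8921 FPKM in shCtl, against 7207 and 6184 FPKM in shCbx6. The depth behind the peak lists is unknown, and relative depth of the RNA libraries, read from the steps between low values, was 1, 1.01, 0.956 and 1.13.

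The promoters of 4 Hox genes shared an 11-letter word, and 3 of them, from HoxA, HoxC and HoxD, are shown because no other word of that length stood in as many Hox promoters. A promoter is here the 250 bases before the outermost annotated start in GENCODE, read on the gene's strand from the mm9 genome, with the shared word in capitals. The word GAAAATTTACA began at position −122 from the start of Hoxa3, −148 from that of Hoxc6 and −129 from that of Hoxd3. Among 21917 promoters of genes in the table it was found in 8 on either strand (0.0365%), so 4 of the 8 promoters that hold it belong to Hox genes, a description of a word picked after these sequences were seen.
Hoxa3 promoter (chr6:52163339-52163588, minus strand): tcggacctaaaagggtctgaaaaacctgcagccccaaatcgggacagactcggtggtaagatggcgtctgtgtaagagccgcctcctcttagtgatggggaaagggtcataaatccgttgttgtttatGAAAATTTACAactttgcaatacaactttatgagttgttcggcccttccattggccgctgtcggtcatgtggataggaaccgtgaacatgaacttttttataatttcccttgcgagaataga
Hoxc6 promoter (chr15:102828438-102828687, plus strand): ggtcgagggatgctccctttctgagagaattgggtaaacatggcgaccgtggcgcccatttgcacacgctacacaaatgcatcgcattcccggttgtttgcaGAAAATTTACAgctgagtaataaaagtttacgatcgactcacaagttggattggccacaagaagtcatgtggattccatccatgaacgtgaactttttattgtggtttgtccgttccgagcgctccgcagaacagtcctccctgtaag
Hoxd3 promoter (chr2:74549736-74549985, plus strand): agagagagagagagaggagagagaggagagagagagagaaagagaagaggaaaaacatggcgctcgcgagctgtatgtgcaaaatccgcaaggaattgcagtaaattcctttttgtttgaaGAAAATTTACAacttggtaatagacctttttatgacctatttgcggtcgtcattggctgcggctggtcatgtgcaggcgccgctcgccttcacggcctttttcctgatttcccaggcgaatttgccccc

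The longest run of letters common to the Hoxa3 and Hoxd3 promoters was 15 bases, and Hoxc6 shared 11 bases with Hoxa3 and 12 with Hoxd3. Words of 11 letters were searched on both strands and kept where 3 or more Hox promoters held them, after leaving out simple repeats. The other 3 words found overlap this one and stood in 3 Hox promoters each, Hoxa3 and Hoxd3 among them. The annotated entry of Hoxa3 begins upstream of Hoxa6 and spans Hoxa4 to Hoxa6, and its window overlaps an exon of a noncoding transcript. The entry of Hoxd3 likewise spans Hoxd4. The word is a description of these windows and not a known site. The homeodomain proteins of the caudal family bind TTTATG-like sequences, and TTTATG stood in 12 of the 39 Hox promoters on either strand (30.8%), against 9.92% of all promoters. TATAAA was found in 6 (15.4%), against 11.9% of all. A retinoic acid response element of the DR5 type was found in 0, against 0.0502% of all, and no match says only that the sequence is not in this window.

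CG dinucleotides, the sites of DNA methylation, are shown next for genes on which the results turn. Hoxc13 and Hoxd13 were among the Hox genes with the highest FPKM values, and Hoxb5 had no CBX6 replicate 2 peak. Capitals mark each CG.
Hoxc13 promoter (chr15:102751284-102751533, plus strand): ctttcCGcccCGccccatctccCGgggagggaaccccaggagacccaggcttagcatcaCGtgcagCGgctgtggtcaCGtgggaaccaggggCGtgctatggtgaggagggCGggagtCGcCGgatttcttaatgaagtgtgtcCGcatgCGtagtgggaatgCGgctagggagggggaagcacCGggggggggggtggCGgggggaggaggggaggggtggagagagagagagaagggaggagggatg
Hoxd13 promoter (chr2:74506117-74506366, plus strand): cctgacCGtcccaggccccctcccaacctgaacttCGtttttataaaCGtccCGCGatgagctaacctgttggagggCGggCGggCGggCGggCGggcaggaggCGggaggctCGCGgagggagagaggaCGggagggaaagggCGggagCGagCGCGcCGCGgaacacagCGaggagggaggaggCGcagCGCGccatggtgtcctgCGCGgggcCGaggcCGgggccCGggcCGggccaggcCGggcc
Hoxb5 promoter (chr11:96163659-96163908, plus strand): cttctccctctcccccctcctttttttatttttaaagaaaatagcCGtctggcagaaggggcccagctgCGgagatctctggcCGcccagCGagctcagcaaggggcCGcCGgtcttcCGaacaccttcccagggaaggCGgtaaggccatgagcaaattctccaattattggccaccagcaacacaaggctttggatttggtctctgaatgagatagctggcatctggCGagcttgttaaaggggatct

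These windows held 15 CG in Hoxc13, 31 in Hoxd13 and 9 in Hoxb5. Over the 39 Hox promoters the number ran from 2 in Hoxa2 to 41 in Hoxa4, with a median of 11. The median of all 21917 promoters was 9, and 45.3% of them held at least 11. The median GC content was 54% for Hox promoters and 54.8% for all. By base composition at the start, Hox promoters therefore lay near the middle of all promoters, and spread widely.

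Peaks were first counted by the rule that the study used for target genes, with a peak anywhere from 2.5 kb before the start to the end of the gene. CBX7 peaks stood at all 39 Hox genes, against 17.9% of the 21921 genes with coordinates. RING1B peaks stood at 36 (16.1% of all genes), and CBX6 peaks at 34 in replicate 2 (16.6% of all genes) and at 39 in replicate 1 (56.9% of all genes). A peak of each of the 4 lists was present at 31 genes (11.5% of all genes). The replicate 1 list holds 21865 peaks against 5103 in replicate 2, so its count says less about the Hox genes.

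The transcription start itself lay under a CBX7 peak at all 39 genes, against 13.3% of all genes. For RING1B this held at 34 genes (13.1% of all genes), for CBX6 replicate 2 at 32 (10.2% of all genes) and for CBX6 replicate 1 at 33 (45% of all genes). The starts of 27 genes lay under peaks of all 4 lists (7.21% of all genes). Hoxd4, a gene of neck and hindbrain identity, had its start under a CBX7 peak and under no other, while 89.3% of its length lay under CBX6 replicate 2 peaks and 90.2% under RING1B peaks.

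Most Hox genes lay largely under peaks. The median Hox gene had 100% of its bases under CBX7 peaks, 100% under RING1B peaks, 98.5% under CBX6 replicate 2 peaks and 63.9% under CBX6 replicate 1 peaks, against medians over all genes of 0, 0, 0 and 0.909%. Wholly covered were 23 genes in CBX7 (1.08% of all genes), 22 in RING1B (1.06%), 18 in CBX6 replicate 2 (0.826%) and 2 in CBX6 replicate 1 (1.04%), the last being Hoxc11 and Hoxd9. Gene length was not matched in these shares. Some genes overlap on the annotation, such as Hoxb7 and Hoxb8, Hoxd3 and Hoxd4, and Hoxa3 and its neighbours, so their coverage is not independent.

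From its first to its last Hox gene, HoxA spans 105509 bp (chr6:52105366-52210874), HoxB 173941 bp (chr11:96055630-96229570), HoxC 115741 bp (chr15:102751534-102867274) and HoxD 96834 bp (chr2:74506367-74603200). Of these 492025 bp together, 76% lay under CBX7 peaks, 66.7% under CBX6 replicate 2 peaks, 62.2% under RING1B peaks and 42.4% under CBX6 replicate 1 peaks. The same lists cover 0.507%, 0.394%, 0.456% and 1.34% of chromosomes 1 to 19, X and Y.

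**Figure D1:**
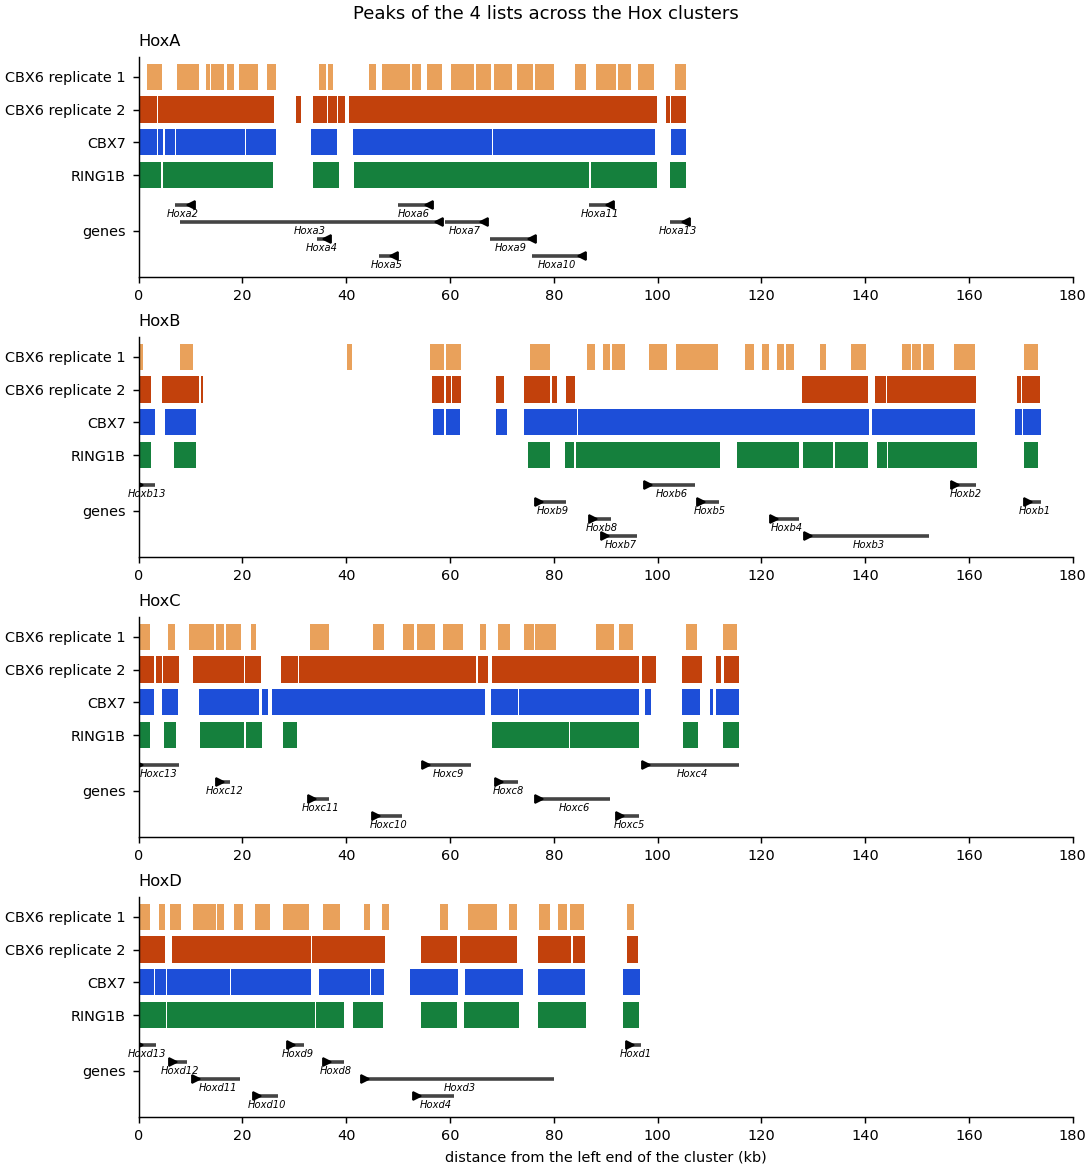
Peaks of the 4 lists across each cluster, cut at the ends of the cluster, against distance from its left end in kb, with genes as bars below and arrowheads at their transcription starts. CBX6 replicate 2 lists no peak over 43676 bp in the middle of HoxB, and RING1B lists none over 37570 bp of HoxC.

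HoxA was covered most, with 90% under CBX6 replicate 2, 86.7% under CBX7, 86.8% under RING1B and 58.7% under CBX6 replicate 1. Bases under CBX6 replicate 2, CBX7 and RING1B together made up 84.3% of the cluster. HoxD had 76.8%, 79.9%, 77.7% and 45.3% in the same order, and 71.5% under the 3 lists together.

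HoxB and HoxC differed between the lists. In HoxB, CBX7 covered 61.5%, RING1B 49.6%, CBX6 replicate 2 35% and CBX6 replicate 1 30.6%, and 26.2% lay under CBX6 replicate 2, CBX7 and RING1B together. In HoxC, CBX6 replicate 2 covered 84.7% and CBX7 84.5%, but RING1B covered 45.9% and CBX6 replicate 1 42.6%, and 44.7% lay under the 3 lists together. The share of each cluster under peaks is given as a value without a test, since each list comes from 1 ChIP sample.

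**Figure D2:**
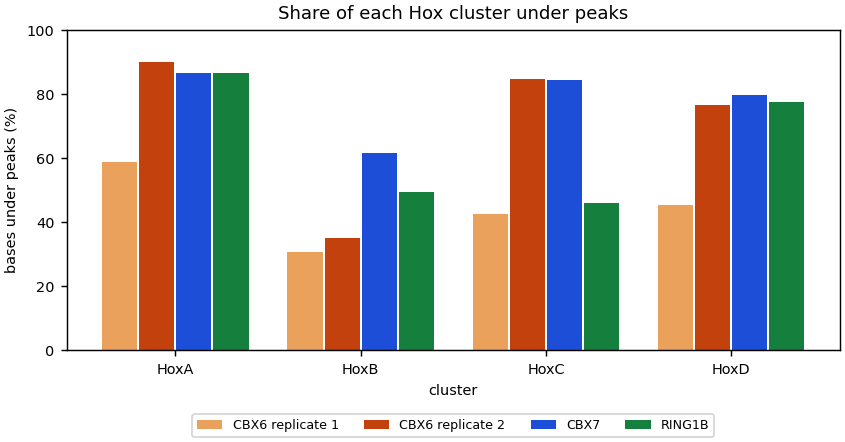
Percent of the bases of each cluster under peaks of the 4 lists, 1 bar per list and cluster, with no error bars because each list is 1 sample. HoxA stands between 86.7 and 90% in CBX6 replicate 2, CBX7 and RING1B, while HoxB falls to 35% in CBX6 replicate 2 and HoxC to 45.9% in RING1B.

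The 5 Hox genes without a CBX6 replicate 2 peak lie in a single stretch. The replicate 2 list held no peak from chr11:96139788-96183463, which contains the starts of Hoxb4, Hoxb5, Hoxb6, Hoxb7 and Hoxb8, genes of the neck and thorax. Over these 43676 bp CBX7 peaks covered 99.4%, RING1B peaks 91.2% and CBX6 replicate 1 peaks, 10 in number, 52.6%. The widest replicate 1 peak of HoxB lies inside it (chr11:96159202-96167347, 8146 bp, score 500.1) and covers the start of Hoxb5. The 2 CBX6 replicates differed here, and whether the tagged protein was there in replicate 2 below the caller's threshold was not tested.

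RING1B showed a stretch of the same kind in HoxC. No RING1B peak was listed from chr15:102781976-102819545, which contains the starts of Hoxc9, Hoxc10 and Hoxc11, genes of the lower thoracic and lumbar levels. Over these 37570 bp CBX7 peaks covered 96.9%, CBX6 replicate 2 peaks 96.5% and CBX6 replicate 1 peaks 43.8%. The highest-scored CBX6 replicate 1 peak of HoxC lies there, over Hoxc11 (chr15:102784542-102788175, score 380.3). With the peaks as listed, the CBX7 and both CBX6 lists cover Hoxc9 to Hoxc11 without RING1B, and whether RING1B is absent from this chromatin cannot be read from a peak list without its signal.

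Both stretches coincided with the widest CBX7 peaks. Of all CBX7 peaks, the widest lies in HoxB (chr11:96140346-96196376, 56031 bp) and had 22.8% of its bases under CBX6 replicate 2 and 91.5% under RING1B. The second, in HoxC (chr15:102779023-102818332, 39310 bp), had 98.4% under CBX6 replicate 2 and 6.93% under RING1B. The other 4 CBX7 peaks of 20 kb or more, 1 of them in HoxA (chr6:52146602-52173420), were covered to at least 90.5% by both lists.

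Wide peaks gathered in the clusters. The widest peak of the whole list lay in a Hox cluster for CBX6 replicate 2 (40544 bp, chr6:52145932-52186475), for CBX7 and for RING1B (45341 bp, chr6:52146872-52192212). Each of these lists held 6 peaks of 20 kb or more, of which 5, 3 and 4 lay in Hox clusters. In CBX6 replicate 1 no peak reached 20 kb, and none of its 10 widest lay in a cluster. The number of peaks in the clusters was 84 for CBX6 replicate 1, 53 for CBX6 replicate 2, 46 for CBX7 and 34 for RING1B. Their median widths were 2250.5, 3082, 5328 and 5840 bp, against 1437, 1477, 2068 and 2305 bp for peaks elsewhere.

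In CBX6 replicate 2, the widest peaks of HoxA, HoxC and HoxD had low scores. A score is the authors' MACS value, which rises with the strength of a peak within a list. In CBX6 replicate 2 the peaks of 20 kb or more had a median score of 1024, while the 70 peaks between 10 and 20 kb had a median of 3100, a value that recurs at the top of these lists and cannot rank them. The 40544 bp peak of HoxA scored 283.8, the 34121 bp peak of HoxC (chr15:102782372-102816492) 195.3 and the 26715 bp peak of HoxD (chr2:74512837-74539551) 234.8. These were among the widest of the list, and the lowest score kept in it was 50. In RING1B the widest peaks of HoxA and HoxD (chr2:74511816-74540308, 28493 bp) scored 652.8 and 734.8, and in CBX7 the widest of HoxB scored 902.4. Other wide peaks scored high, with 2996 for the widest RING1B peak of HoxB, 2628 for the widest CBX7 peak of HoxC, and medians over peaks of 20 kb or more of 2553 in CBX7 and 2440 in RING1B. How width entered the score was not tested.

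**Figure D3:**
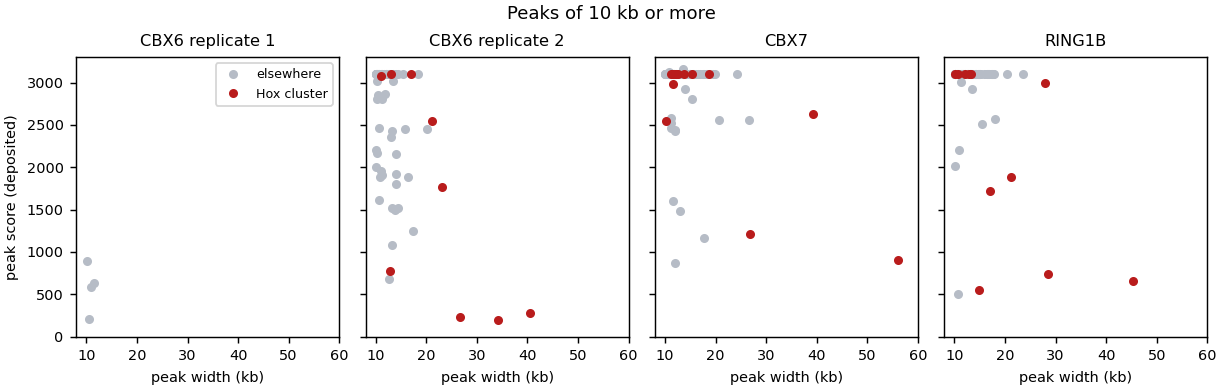
Deposited score against width in kb for every peak of 10 kb or more, 1 panel per list, with peaks in Hox clusters in red and other peaks in grey. In CBX6 replicate 2 the red peaks of 26715, 34121 and 40544 bp have scores from 195.3 to 283.8, below every grey peak.

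Outside those, the top of each cluster was as follows. Peaks at the recurring score of 3100 numbered 6 in the clusters for CBX6 replicate 2, 14 for CBX7 and 8 for RING1B, and each cluster held at least 1 of them in each of these lists. In CBX6 replicate 1, where that score does not occur, the highest peak lay over Hoxa10 in HoxA (chr6:52181669-52185332, score 632.4), over Hoxb2 in HoxB (chr11:96212786-96216814, score 723.8), over Hoxc11 in HoxC and over Hoxd9 in HoxD (chr2:74534148-74539124, score 776.4). Its widest peaks were 5460 bp in HoxA (chr6:52152221-52157680), 8146 bp in HoxB, 4799 bp in HoxC (chr15:102761242-102766040) and 5688 bp in HoxD (chr2:74569804-74575491). The widest of the remaining lists were the 17013 bp CBX6 replicate 2 peak of HoxB (chr11:96199932-96216944), the 15296 bp CBX7 peak of HoxD (chr2:74524212-74539507), and the RING1B peaks of 27829 bp in HoxB (chr11:96139818-96167646) and 14918 bp in HoxC (chr15:102819546-102834463).

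How far the 2 CBX6 replicates met depended on the list counted from. Of the replicate 1 peak bases in the clusters, 86.6% lay under replicate 2 peaks, against 18.1% of its bases elsewhere in the genome. Of the replicate 2 bases in the clusters, 55% lay under replicate 1 peaks, against 63.5% elsewhere. The replicate 1 peaks of the HoxB stretch over Hoxb4 to Hoxb8, where replicate 2 lists none, are part of what did not meet. CBX6 replicate 2 bases lay under CBX7 peaks to 95% in the clusters and to 86.2% elsewhere, and under RING1B peaks to 79.3% and 83%. RING1B bases lay under CBX7 peaks to 97.9% in the clusters and to 87.4% elsewhere.

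Stretches free of peaks were shared as well. The longest, 44043 bp of HoxB between Hoxb13 and Hoxb9 (chr11:96068112-96112154), held no peak of CBX6 replicate 2, CBX7 or RING1B, and CBX6 replicate 1 covered 2.91% of it. Hoxb13 lies apart from the rest of its cluster, and its start was under peaks of all 4 lists. In HoxA, HoxC and HoxD the longest stretches without these 3 lists measured 3798 bp (chr6:52131885-52135682), 4987 bp (chr15:102851303-102856289) and 7057 bp (chr2:74592595-74599651).

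CG density followed the peaks. Over the 4 clusters, bases under CBX6 replicate 2, CBX7 and RING1B together (255605 bp) held 31.4 CG per kb, bases under 2 of these lists 25.3, bases under 1 of them 12 and bases under none (100096 bp) 9.24. The order held in HoxA, HoxC and HoxD. In HoxB, bases under 2 lists held 29.4 CG per kb and bases under all 3 held 27.9, and the former include the stretch without CBX6 replicate 2 peaks. GC content ran from 44.8% under no list to 51.1% under the 3 lists. Bases of 1 cluster are neighbours and not replicates, so no test was made.

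**Figure D4:**
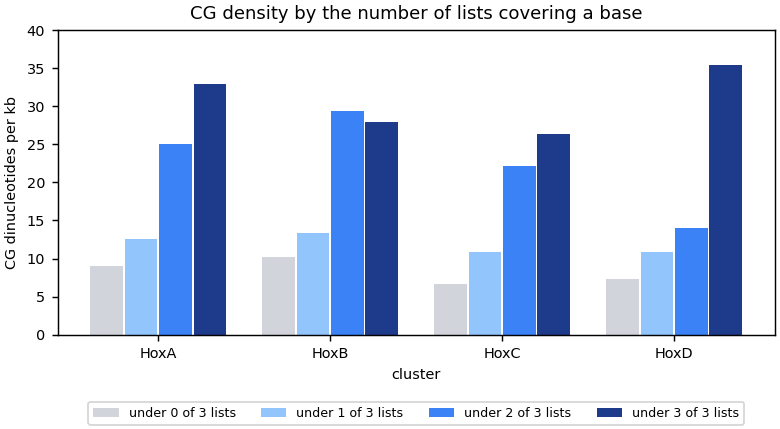
CG dinucleotides per kb in each cluster for bases under 0, 1, 2 or 3 of the CBX6 replicate 2, CBX7 and RING1B lists, 1 bar per class, with no error bars because each is a count over all bases of the class. Bases under no list stay between 6.67 and 10.2 CG per kb and those under the 3 lists between 26.4 and 35.4.

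In the RNA, no Hox gene reached 1 FPKM, the level at which the study called a gene expressed, in any of the 4 libraries. A mean under 1 FPKM in both groups is common, at 50.2% of all symbols. Of the 39 genes, 7 were listed at 0 in all 4 libraries (20.1% of all symbols were), namely Hoxa6, Hoxa9, Hoxb5, Hoxb6, Hoxc5, Hoxc6 and Hoxc9, while 9 were above 0 in all 4 and 23 in 1 to 3 of them. The shCtl mean had a median of 0.0128 FPKM over Hox genes and 0.709 FPKM over all symbols.

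**Figure D5:**
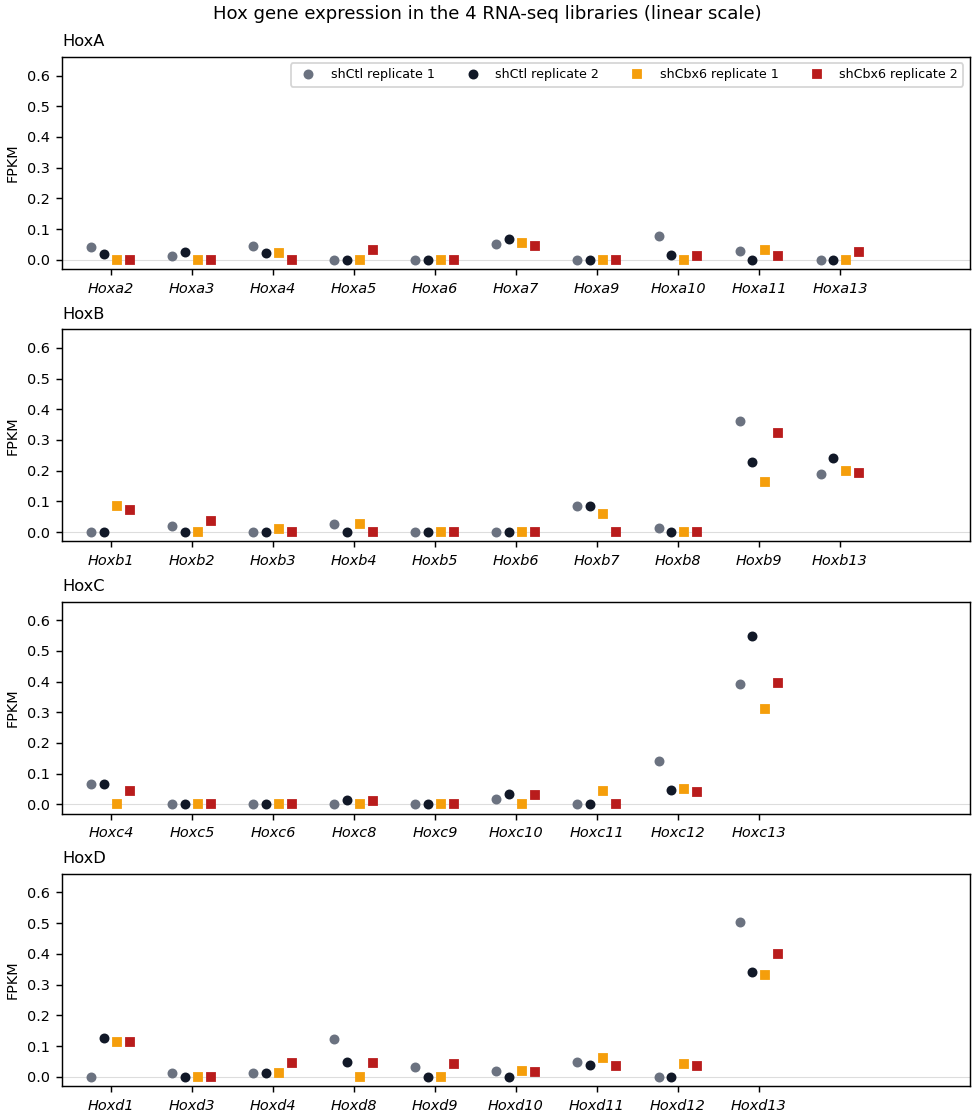
FPKM of the Hox genes in the 4 RNA-seq libraries on a linear scale, 1 panel per cluster, genes in paralog order, 1 point per library. Hoxb9, Hoxb13, Hoxc13 and Hoxd13 stand above 0.1 FPKM in every library, the other genes drawn lie at 0.142 FPKM or less, and shCtl and shCbx6 points overlap for most genes.

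Hoxb9, Hoxb13, Hoxc13 and Hoxd13 were among the few Hox genes at 0.1 FPKM or more in all 4 libraries. Except for Hoxb9 these sit at an end of their cluster. Hoxd13, which patterns digits and the hindgut, gave 0.504 and 0.340 FPKM in shCtl, compared with 0.333 and 0.400 FPKM in shCbx6. Hoxc13, needed for hair and nails, was at 0.393 and 0.549 FPKM in shCtl and at 0.312 and 0.397 FPKM in shCbx6. In both genes the highest value came from a shCtl library, and the groups overlapped.

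Hoxb13, a gene of the tail and prostate, varied least of these, at 0.191 and 0.242 FPKM in shCtl, against 0.199 and 0.193 FPKM in shCbx6. Hoxb9, which acts in the thorax, was at 0.363 and 0.227 FPKM in shCtl and at 0.165 and 0.322 FPKM in shCbx6. For these too the groups overlapped.

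By paralog group, group 13 held the largest share of the summed Hox FPKM over the 4 libraries, 43.4%. It has 4 genes, of which Hoxa13 was above 0 in 1 library only. Low-numbered genes were read too, such as Hoxd1 at 0 and 0.126 FPKM in shCtl, against 0.114 and 0.113 FPKM in shCbx6. Groups 5 and 6, in the middle of the clusters, gave 0.341% and 0, and all 3 genes of group 6 were at 0 throughout. The groups hold 2 to 4 genes, and their sums were not divided by that number. FPKM is scaled to transcript length, so genes can be compared at this level, apart from those that share sequence with a neighbour or an opposite transcript. Reads of overlapping genes, such as Hoxd3 and Hoxd4 or Hoxa11 and its antisense transcript, cannot be told apart where the strand of the library is not stated. In such bulk RNA, few cells that transcribe a gene and little transcript in every cell also cannot be told apart.

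The values may rest on few fragments. Where counts are whole, values of 1 gene stand in whole-number ratios once depth is taken into account. Such ratios were found for 24 of the 26 genes with 2 or more values above 0, within a tolerance of 0.03. Whole numbers up to 60 were allowed, so a ratio can also arise by chance. This is easiest for the 8 genes with 2 values above 0, and the share over all genes was not computed. The smallest numbers that gave the values were 19, 13, 12 and 17 for Hoxd13, 29, 41, 22 and 33 for Hoxc13, 30, 19, 13 and 30 for Hoxb9 and 7, 9, 7 and 8 for Hoxb13, in the order of shCtl and shCbx6 replicates. For the other genes with such a ratio they were at most 7 in any library. Hoxa10 was among those without such a ratio.

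The comparison of shCbx6 with shCtl asks whether lowering Cbx6 releases these genes. The planned test, limma on genes whose shCtl or shCbx6 mean reached 1 FPKM, included 0 Hox genes, while it called 0.0949% of the 11592 genes it tested. With 0 left, none could count as up or down 1.5-fold by the ratio of means, as 7.63% and 6.56% of the tested genes did, so this filter says nothing on the direction of any Hox gene. Without a filter 11 Hox genes were up and 11 were down by that ratio, against 20.1% and 12.7% of all genes with a mean above 0.

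A fit without the filter covered 18597 genes with a mean above 0, of which 32 were Hox genes. Only its number of calls was planned, and its values for single genes were added after the data were seen. None of the 32 passed limma at an adjusted p under 0.05 (0.0108% of all genes did), and 1, Hoxb1, had an unadjusted p under 0.05 (10.9% of all genes did). The median log2 fold change on the log2(FPKM + 1) scale was −0.0045 for the Hox genes and 0.0054 for all genes. That scale compresses values far under 1, so small log2 fold changes say little here.

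Hoxb1, which specifies hindbrain identity, was listed at 0 in both shCtl libraries and at 0.0843 and 0.0715 FPKM in shCbx6. The difference on that scale was 0.11 with a standard error of 0.022 (limma adjusted p = 0.318), and the smallest whole numbers behind its values were 1 and 1. Hoxd12, a limb gene, showed the same form, with 0 in both shCtl libraries and 0.0407 and 0.0345 FPKM in shCbx6, again 1 and 1. Such numbers are the smallest with the ratio of the values, so the true fragment counts may be higher and are not known. If a count was 1, it could not be told from none at this depth.

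Both shCbx6 values lay above both shCtl values for 3 Hox genes, Hoxb1, Hoxd4 and Hoxd12, against 20.6% of all genes with a mean above 0. They lay below both for 6, namely Hoxa2, Hoxa3, Hoxa10, Hoxb7, Hoxc4 and Hoxd8, against 20.2%. The remaining 30 overlapped, including those at 0. With 2 libraries against 2, an exact permutation test cannot give a two-sided p under 0.333, so no single gene was tested in that way. On the log2(FPKM + 1) scale the differences were −0.06 (standard error 0.092) for Hoxb9, −0.02 (0.039) for Hoxb13, −0.12 (0.079) for Hoxc13 and −0.06 (0.079) for Hoxd13, with limma adjusted p from 0.680 to 0.864. Each lay less than 2 standard errors from 0.

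Summed over each cluster, HoxA was at 0.404 and 0.533 FPKM in shCtl, against 0.304 and 0.835 FPKM in shCbx6. HoxB was at 0.698 and 0.553 against 0.545 and 0.625 FPKM, HoxC at 0.620 and 0.711 against 0.406 and 0.528 FPKM, and HoxD at 0.749 and 0.565 against 0.580 and 0.729 FPKM. The shCbx6 values lay below both shCtl values in HoxC and overlapped them in the other clusters. Over all 39 genes the sums were 2.47 and 2.36 FPKM in shCtl, against 1.83 and 2.72 FPKM in shCbx6.

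Markers of other cell types differed between the libraries and are given beside these values. The counts of genes above (both shCbx6 values over both shCtl values) and below are to be read beside the 20.6% and 20.2% of all genes. The trophectoderm list, which includes Cdx2 and had 5 of 5 genes above 0 in every library, summed to 2.95 and 2.46 FPKM in shCtl and to 8.31 and 20.4 FPKM in shCbx6 replicates 1 and 2. All 5 of its genes were above (20.6% of all genes). Its sum was mostly Tfap2c, joined by Krt7 at 9.02 FPKM in shCbx6 replicate 2. The fibroblast list, whose sum is mostly Thy1, summed to 1.72 and 1.69 FPKM in shCtl and to 1.37 and 4.67 FPKM in shCbx6, with Lum at 0 throughout. Of its 7 genes 4, among them Col1a1, were above and 0 below (20.6% and 20.2% of all genes). The mesoderm sums, mostly Eomes, were 3.06 and 2.16 FPKM in shCtl, then 2.74 and 3.53 FPKM in shCbx6, with 3 of 6 genes above and 1 below. The neuroectoderm sums were 4.20 and 3.57 FPKM in shCtl, then 7.16 and 3.35 FPKM in shCbx6. Of its 5 genes 2, Pax6 and Neurod1, were above and 1, Sox1, was below, with Neurog2 at 0 throughout. Endoderm sums were 1.30 and 1.18 FPKM in shCtl, then 0.990 and 0.970 FPKM in shCbx6, with 2 of 5 genes above and 2 below. The summed Hox level and the trophectoderm, fibroblast and mesoderm sums were all highest in shCbx6 replicate 2, and the part of these cells in the Hox values was not tested.

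The RNAs of genes whose products work with Hox factors or act on Hox genes were read over a wide range. Of 9 cofactor genes, which encode TALE homeodomain proteins that bind DNA with Hox proteins, 5 reached 1 FPKM, Pbx2, Pbx3, Pbx4 and Pknox1 among them, and 0 were called in either direction. Pbx2 was the highest, at 17.7 and 17.8 FPKM in shCtl, against 14.9 and 18.4 FPKM in shCbx6. CBX6 replicate 1 peaks stood at 9 of the 9 cofactor genes, CBX6 replicate 2 peaks at 7, CBX7 peaks at 5 and RING1B peaks at 4, where the shares over all genes were 56.9, 16.6, 17.9 and 16.1%.

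The caudal and ParaHox genes, close relatives of the clusters that include activators of Hox transcription, had CBX6 replicate 2, CBX7 and RING1B peaks at 6 of 6 and CBX6 replicate 1 peaks at 5, beside the same shares over all genes. Only Cdx1 reached 1 FPKM, at 2.58 and 2.80 FPKM in shCtl, against 0.797 and 0.659 FPKM in shCbx6. The shCbx6 libraries were both under the shCtl libraries, by −1.09 on the log2(FPKM + 1) scale, which understates changes of low values, with a standard error of 0.173, and this did not pass over all genes (limma adjusted p = 0.123). The members did not all lie on the same side as Cdx1, since Cdx2, Cdx4 and Gsx1, 3 of its 6 genes and all under 1 FPKM, had higher values in either shCbx6 library than in either shCtl library, as 20.6% of all genes had.

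Of 15 genes of the retinoic acid receptors and response, 9 were tested and 0 were called, with 3 at an unadjusted p under 0.05 upward (5.12% of all tested genes) and 1 downward (6.55%). Rxrg, a nuclear receptor subunit, was at 0.205 and 0.203 FPKM in shCtl, against 1.28 and 1.17 FPKM in shCbx6 (limma adjusted p = 0.213). The 9 trithorax, Polycomb and other regulators, among them Mll1, Wdr5, Ctcf and Rnf2, which encodes RING1B, were all tested with 0 called. Both Wdr5 and Rnf2 were lower at an unadjusted p under 0.05, as 6.55% of tested genes were. None of the 9 had a peak of CBX6 replicate 2, CBX7 or RING1B (16.6, 17.9 and 16.1% of all genes did), while 8 had one of CBX6 replicate 1 (56.9% of all genes).

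Of 15 genes beside the clusters with a value, CBX6 replicate 1 peaks stood at 13 (56.9% of all genes), CBX6 replicate 2 peaks at 3, and CBX7 and RING1B peaks at 4 each. For the last 3 lists such counts lie near the shares over all genes, 16.6, 17.9 and 16.1%. Evx1 and Evx2, homeobox genes that flank HoxA and HoxD, and Jazf1 had peaks in all 4 lists, and Skap1 in all but CBX6 replicate 2. Evx2 was at 0 in every library, and Evx1 stayed between 0.180 and 0.615 FPKM. Skap2, Mtx2, Lnp and Atp5g3 were at 3.01 FPKM or more in all libraries and had peaks of CBX6 replicate 1 only. Of the 9 tested in this list 0 were called and 2, Skap2 and Hibadh, were lower at an unadjusted p under 0.05 (6.55% of tested genes), with 0 higher. Skap2 was at 29.0 and 30.4 FPKM in shCtl, against 21.8 and 17.6 FPKM in shCbx6 (limma adjusted p = 0.275). Over the 15 genes 6 had both shCbx6 values below both shCtl values (20.2% of all genes) and 0 above.

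The clusters also carry microRNA genes, and those described here fall into 2 groups by the seed (bases 2 to 8), the part that pairs with target messages. The mature sequences are from RefSeq on GRCm38.p6, with the seed in capitals, and are the 5p arms of those microRNA genes of the clusters that the expression table lists.
mmu-miR-10a-5p: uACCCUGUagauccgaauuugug
mmu-miR-10b-5p: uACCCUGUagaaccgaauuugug
mmu-miR-196a-5p: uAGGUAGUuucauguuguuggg
mmu-miR-196b-5p: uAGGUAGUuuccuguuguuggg

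Members of the miR-10 pair share 1 seed and those of the miR-196 pair another. Mir196a-1 in HoxB (chr11:96126478-96126579) was listed at 31.8 and 47.0 FPKM in shCtl and at 33.2 and 56.3 FPKM in shCbx6. The smallest whole numbers behind these values were 2, 3, 2 and 4, since a very short gene turns a few fragments into a high FPKM. Mir10a, Mir10b, Mir196a-2 and Mir196b were at 0 in all libraries, as was Hotair, a noncoding RNA of HoxC. Such RNA-seq does not measure mature microRNAs. CBX7 peaks stood at all 7 of the cluster transcripts other than Hox genes, CBX6 replicate 2 peaks at 6, RING1B peaks at 5 and CBX6 replicate 1 peaks at 4, beside shares over all genes of 17.9, 16.6, 16.1 and 56.9%.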

How the data were processed

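RNA-seq reads were placed on mm9 by the authors using TopHat, which kept reads with 1 place only, and Cufflinks turned them into FPKM by RefSeq transcript. In the deposited table each library has an FPKM per symbol, with 23288 different symbols in 23290 entries. ChIP-seq reads with 1 place on mm9 were kept with Bowtie, MACS was run on each sample, and the deposited lists hold a score for every peak. Which control entered each call is not given in the sources used here. Versions are not given either. Unique mapping leaves repeats without peaks and lowers values of near-identical genes.

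Groups were the 2 shCtl and 2 shCbx6 libraries. limma 3.58.1 (R 4.3.3, lmFit and eBayes with a trend, Benjamini-Hochberg) was fitted to log2(FPKM + 1) of all genes whose shCtl or shCbx6 mean reached 1 FPKM, after tests on simulated data. Peaks were set on the GENCODE annotation of mm9, on which 21921 symbols (94.1%) had coordinates (21149 by name, 772 by synonym), with an overlap of at least 1 bp (Python 3.11.15, numpy 2.4.6, pandas 2.3.3, matplotlib 3.10.9). Sequences were read from the genome of the same build. Named are Hox genes at 1 FPKM or past 1.5-fold, those without a peak of CBX6 replicate 2, CBX7 or RING1B, the widest and highest-scored peaks of each cluster, Cbx6, and examples from the lists. Genes named for other reasons, such as those at 0.1 FPKM or the promoter word, were chosen after their values were seen. Some items are not reported here, though counts and sums over the 39 Hox genes include every member. The members and lists were chosen with earlier results of these data known. Alternatives covered filters, pseudocount, scaling, fold, replicates, peak score, window and overlap.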

Additional observations from a re-analysis of the deposited data

How the results depend on the processing

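The number of Hox genes at 1 FPKM was 0 under every alternative, and limma called 0 Hox genes in every fit, with unadjusted p under 0.05 for 0 to 5 of them in the fits without a filter. The log2 fold change of tested Hox genes could not be computed as planned, because the filter left no Hox gene. A fit without the filter was planned for the number of calls only. Its per-gene values and its variants were chosen after seeing the data. Without the filter on low FPKM, 11 Hox genes were up and 11 were down at least 1.5-fold, against 20.1% and 12.7% of all genes, and these ratios include genes listed at 0 in 1 group. In the fits without a filter, leaving out 1 library turned the sign of Hoxb9, Hoxb13 and Hoxd13. Hoxb9, at −0.06 on the log2 scale, ranged from −0.1513 to 0.0318 (without shCbx6 replicate 1) and was 0.0161 without shCtl replicate 1. Hoxb13, at −0.02, ranged from −0.0541 to 0.0069 (without shCtl replicate 2), and Hoxd13, at −0.06, from −0.1386 to 0.0273 (without shCtl replicate 1). Hoxc13, at −0.12, stayed negative, from −0.1941 without shCtl replicate 1 to −0.0413 without shCtl replicate 2. With a pseudocount of 0.1 the values were −0.2197 for Hoxb9, −0.0894 for Hoxb13, −0.3221 for Hoxc13 and −0.1486 for Hoxd13, since a smaller pseudocount compresses low values less, and none passed. Leaving out a library of a group assumes that the lone library varies like the other group.

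The replicate block gave 0 calls, as did the fit without it. Deviations of same-numbered libraries correlated at r = 0.266 across 11301 genes, and with 2 pairs the numbers were not taken to pair the samples.

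With peaks of a score of at least 100, the share of the clusters under peaks was 37% for CBX6 replicate 1, 64.1% for CBX6 replicate 2, 74.6% for CBX7 and 61.9% for RING1B, and with clusters widened by 10 kb on each side it was 39.3, 63.7, 71.5 and 57.6%. The share of CBX6 replicate 2 bases in the clusters under CBX7 or RING1B peaks, 96.4%, became 97% and 95.6%. Counts of Hox genes with a peak moved by at most 5 and stayed within 1.5 times. Peak lists hold no read counts, so depth limits what a missing peak can say.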
